A study of Mus musculus with 12 samples.

Results

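The genes described here are 53 genes of the mitotic cell cycle and of DNA replication, read in neutrophils of bone marrow and peritoneum. The members were the rows of the deposited table of 28987 genes whose symbol is on a written list of 53, and 53 of 53 were found, 1 row each. All 53 are protein-coding genes with the same name in GENCODE M21 (GRCm38). They are grouped here by role into 8 cyclin, Cdk1 and Cks genes, 13 genes of mitotic kinases, the spindle checkpoint and the anaphase-promoting complex, 12 genes of kinesins, centromere and spindle, 10 genes of origin licensing and the replication fork, 5 genes of nucleotide synthesis, 2 transcription factors and 3 chromatin genes of dividing cells.

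Mice of the FVB strain were either wild type (WT) or carried the MRP8/BCL2+ transgene (Bcl2 in the group names), in which regulatory regions of the human MRP8 gene drive human Bcl-2 in myeloid cells and make neutrophils resistant to apoptosis. Every mouse, WT included, was given 2 mL of thioglycollate into the peritoneum, an irritant that draws neutrophils there, so no group comes from an untreated animal. Cells of the bone marrow (BM) and of the peritoneum (PT) were collected 6 h later by the labels, while the methods of the study name other hours, and sorted into Trizol. The 4 groups, BM WT, BM Bcl2, PT WT and PT Bcl2, hold 3 RNA libraries each. The labels call the source cells macrophages, whereas the design text and the methods call them neutrophils. By the methods of the study, marrow and peritoneal cells were sorted from each mouse, so BM and PT libraries can come from the same animals, but the columns of the table do not say which belong together and all comparisons treat them as separate. The age of the mice was not given in the sources used here. Nothing in the table says that the libraries of a group are separate mice, so p-values measure the spread between libraries, which may in part be technical.

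A neutrophil is made in the marrow from myeloblasts, promyelocytes and myelocytes, which divide, and then passes through metamyelocyte, band and segmented stages, which do not. A dividing cell licenses its replication origins with the Mcm helicase, copies its DNA in S phase with nucleotides supplied by ribonucleotide reductase and thymidylate synthase, and then separates its chromosomes under the control of Cdk1, the Aurora and Polo kinases and the anaphase-promoting complex. Genes of the first steps are known targets of the E2F factors, and genes of mitosis are known targets of the DREAM complex, of B-Myb and of FoxM1, which act through the cell cycle genes homology region (CHR) and the CCAAT box. Bcl-2 itself acts at mitochondria against cell death.

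Because the members are described together by level, the promoters of 7 of them are shown for the elements through which such genes are known to be regulated. Sequences are the 150 bases before the transcription start in RefSeq (GRCm38.p6), 5′ to 3′ on the strand of the gene, and none of the 7 overlaps an exon of GENCODE M21. Capitals mark the CCAAT box (CCAAT), the CHR (TTTGAA or TTCGAA) and the E2F site (TTTCCCGC or TTTGGCGC), each searched on both strands, so that they also appear as their reverse complements. No one of these motifs contains another. Top2a, Mki67, Kif11 and Hmgb2 are examples of mitosis and chromatin genes with a CHR in the stretch. Mcm5 and Mcm6 are examples of helicase genes with an E2F site there, and Tyms of a member without any of these words. They are not typical of their roles. The same stretch of Aurka, Bub1 and Plk1 holds no CHR, and that of Mcm3 and Mcm7 no E2F site.
Top2a (chr11:99024190-99024339, minus strand): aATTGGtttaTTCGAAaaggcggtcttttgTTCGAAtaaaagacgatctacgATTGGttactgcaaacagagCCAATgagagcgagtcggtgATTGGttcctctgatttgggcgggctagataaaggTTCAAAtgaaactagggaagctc
Mki67 (chr7:135716380-135716529, minus strand): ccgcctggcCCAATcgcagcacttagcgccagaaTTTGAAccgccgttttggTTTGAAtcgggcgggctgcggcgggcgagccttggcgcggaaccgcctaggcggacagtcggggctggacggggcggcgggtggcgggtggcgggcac
Kif11 (chr19:37376232-37376381, plus strand): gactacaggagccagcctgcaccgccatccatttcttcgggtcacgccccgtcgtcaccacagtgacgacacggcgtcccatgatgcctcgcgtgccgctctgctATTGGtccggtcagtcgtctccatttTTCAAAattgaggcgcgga
Hmgb2 (chr8:57511693-57511842, plus strand): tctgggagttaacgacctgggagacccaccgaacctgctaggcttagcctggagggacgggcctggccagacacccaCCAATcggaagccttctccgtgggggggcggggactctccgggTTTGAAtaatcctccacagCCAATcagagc
Mcm5 (chr8:75109359-75109508, plus strand): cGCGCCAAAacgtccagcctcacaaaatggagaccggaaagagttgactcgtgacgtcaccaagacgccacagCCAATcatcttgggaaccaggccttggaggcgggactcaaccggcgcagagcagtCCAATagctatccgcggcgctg
Mcm6 (chr1:128359706-128359855, minus strand): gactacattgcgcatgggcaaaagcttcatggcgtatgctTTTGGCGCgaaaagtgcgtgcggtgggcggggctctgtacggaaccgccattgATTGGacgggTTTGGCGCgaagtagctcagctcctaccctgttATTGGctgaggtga
Tyms (chr5:30073626-30073775, minus strand): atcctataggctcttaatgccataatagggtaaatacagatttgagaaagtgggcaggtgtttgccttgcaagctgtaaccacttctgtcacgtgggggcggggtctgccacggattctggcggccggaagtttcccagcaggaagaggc

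RefSeq promoters of 300 bases, 250 before the start and 50 after it, were at hand for 44 of the 53 members. A CCAAT box was found in 33 of these 44 (75.0%), against 37.9% of the promoters of all 27025 genes in the table. A CHR was found in 23 of 44 (52.3%), against 19.4% of all. An E2F site was found in 6 of 44 (13.6%), against 1.63% of all. By role, the counts were as follows. All 6 promoters with an E2F site were among the 8 of origin licensing and replication fork genes, those of Cdc6, Cdt1, Mcm3, Mcm5, Mcm6 and Mcm7. The CHR was in 15 of 21 promoters of mitotic kinases, checkpoint, kinesins and spindle (71.4%), and in 2 of 13 of replication and nucleotide synthesis (15.4%). None of the 5 nucleotide synthesis promoters held a CHR or an E2F site. A match is a run of letters in a window and does not show that a factor binds there.

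The libraries were checked against their labels before use. The neutrophil genes S100a8 and S100a9 were present in all 12 libraries, with S100a8 at 38874 to 153516 TPM (a level scaled to gene length and to a fixed library total) in BM and 4495 to 27252 in PT. Of the list of 9 neutrophil markers, 1 was at 0 in PT WT library 12. In the test described below, Ly6g, S100a8 and S100a9 were called lower in PT in WT (1.22% of all genes). In Bcl2, S100a8 and S100a9 were called lower (19.1%) and Csf3r higher (2.31%). Human Bcl-2 is not in the mouse table, but the row of mouse Bcl2 was at 166 to 333 TPM in BM Bcl2 and at 82.8 and 58.6 in PT Bcl2 libraries 7 and 8, against 0.219 to 2.37 in the 6 WT libraries. PT Bcl2 library 9 was at 0.695 TPM, within the WT range, against its label, and the comparisons that rest on it are also given without it. Depth was estimated from the steps in the values: 1 read on a transcript of 1000 nt was worth 0.434 to 1.498 TPM in BM WT, 0.901 to 1.61 in BM Bcl2, 0.340 to 0.448 in PT WT and 0.667 to 1.07 in PT Bcl2. A level near 1 TPM in PT therefore rests on few reads, and a level of 0 says only that no read was assigned.

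The 53 genes together were high in the marrow and low in the peritoneum in every library. Their summed level was 4555, 1319 and 1472 TPM in BM WT libraries 4, 5 and 6, and 2519, 4840 and 7398 TPM in BM Bcl2 libraries 1, 2 and 3. It was 398, 382 and 662 TPM in PT WT libraries 10, 11 and 12, and 239, 166 and 308 TPM in PT Bcl2 libraries 7, 8 and 9. The lowest marrow library lay above the highest peritoneal library in both genotypes. As group means, 2449 ± 1825 TPM in BM WT compared with 480.5 ± 157 in PT WT (SD, n = 3), a ratio of 5.10, and 4919 ± 2440 in BM Bcl2 with 238 ± 71.3 in PT Bcl2, a ratio of 20.7. Without library 4 the BM WT mean was 1396 TPM, and without library 9 the PT Bcl2 mean was 202 TPM. In bulk RNA, fewer cells that express a gene and less of its RNA per cell cannot be told apart.

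**Figure D1:**
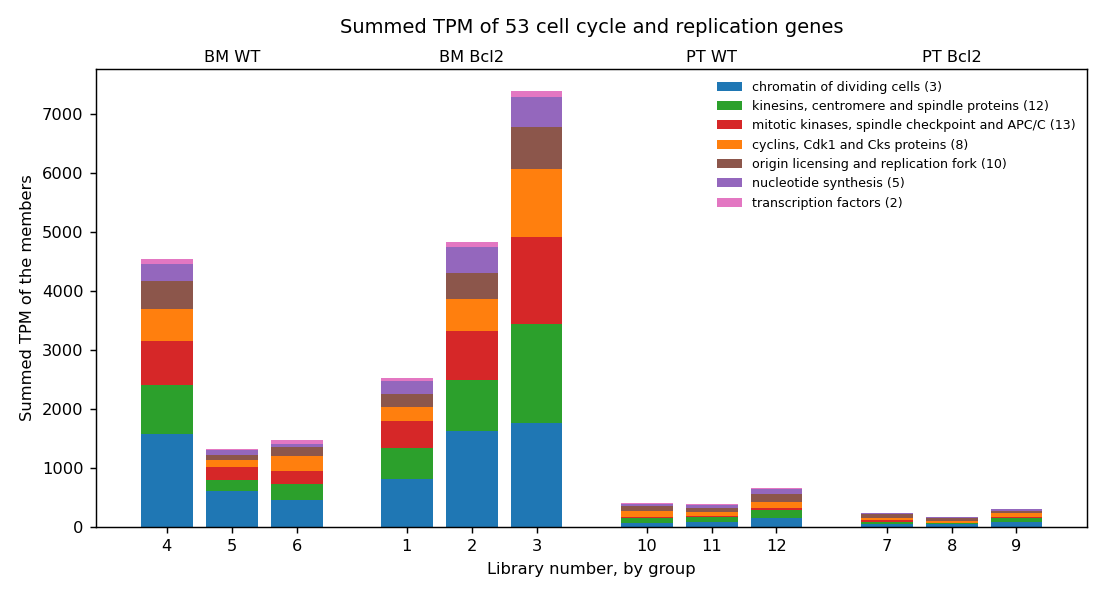
Bars show the summed TPM of the 53 genes in each of the 12 libraries, stacked by role, with the number of genes of each role in the legend. The 6 BM libraries reach 1319 to 7398 TPM and the 6 PT libraries 166 to 662 TPM.

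The ratio of marrow to peritoneum was also taken by role. The 13 genes of mitotic kinases, checkpoint and anaphase-promoting complex had a ratio of BM to PT means of 11.9 in WT and 52.8 in Bcl2. The 5 nucleotide synthesis genes had ratios of 2.45 and 14.8, and the 10 licensing and fork genes 2.61 and 9.10. The ratios were 3.29 and 16.0 for the cyclin and Cdk1 genes, 4.57 and 31.2 for the transcription factors, 4.55 and 23.1 for the kinesin and spindle genes, and 8.90 and 24.9 for the chromatin genes. Without library 4 the WT ratios were 6.54 for the mitotic kinase and checkpoint genes, 2.06 for the cyclin and Cdk1 genes, 1.29 for licensing and fork, 2.46 for kinesins and spindle, 1.15 for nucleotide synthesis and 5.39 for chromatin, and without library 12 that of the transcription factors was 8.64. In Bcl2 the ratio of the cyclin and Cdk1 genes was 9.72 without library 3 and that of the kinesin and spindle genes 36.5 without library 9. These ratios are of summed TPM, so genes of high level weigh most in them. In PT WT, Pcna had a mean of 60.7 of the 93.1 TPM of licensing and fork. Cks2 had 63.5 of the 92.2 TPM of the cyclin and Cdk1 genes, and Tyms and Tk1 23.6 and 22.1 of the 54.4 TPM of nucleotide synthesis. Gene by gene, the median log2 change in WT was -1.86, -2.17 and -1.57 in these 3 roles. The ratios are descriptions of group means, and no test was made between roles.

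Marrow and peritoneum were compared gene by gene within each genotype on log2(TPM + 1), where a change of 1 is a doubling and changes of low genes are understated. Calls required an adjusted p (limma, Benjamini-Hochberg over 13456 genes) under 0.05 together with a change of 2-fold or more. In WT, 13 of the 53 members were called lower in PT and 0 higher, where 1.22% of all tested genes were called lower. In Bcl2, 46 members were called lower and 0 higher, where 19.1% of all tested genes were called lower, and 44 were called without library 9 (16.0% of all genes), when Rrm1 and Tpx2 lost their calls. That background depends on scaling: with each library centred on its median, 36 members and 3.47% of all genes were called lower in Bcl2, and 12.2% of all genes were called higher instead of 2.31%. All 13 members called in WT were among the 46, 33 were called in Bcl2 alone, and 7 in neither genotype. The median change of the members was -2.64 in WT and -4.52 in Bcl2, beside 0.22 and -1.02 over all tested genes, which is -2.86 and -3.51 relative to all genes. In WT 50 and in Bcl2 52 of the members lay below the median of all genes.

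The number called in WT rested on single libraries. It was 3 without BM WT library 4 or without PT WT library 10 (0.372% of all genes), 6 without library 11 (0.587%) and 8 without library 12 (0.832%). It was 21 when each library was centred on its median (1.46% of all genes). Without library 4 the share of all genes called lower was 0.416%. Ube2c, Stmn1 and Plk1 were called in each of the 12 fits that left out a library, the other 9 named below in 6 to 10 of them and Mcm6 in 3. All 53 members passed the minimum of 1 TPM in 3 libraries, 23 of them only with the help of the marrow, since they reached 1 TPM in fewer than 3 PT libraries. Of the 30 that reached it in at least 3 PT libraries, 4 were called in WT and 23 in Bcl2.

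Whether the groups overlap does not depend on the fit. All 3 BM libraries lay above all 3 PT libraries for 33 of 53 members in WT, against 7.97% of all tested genes, and for 46 of 53 in Bcl2, against 32.6%. Without library 9 it was 49 in Bcl2, against 39.0%, and after centring it was 36 in WT, against 11.7%, and 39 in Bcl2, against 10.9%. No member had all 3 PT libraries above all 3 BM libraries in either genotype. For the 23 members that passed the minimum only with the marrow, a higher marrow level is in part set by that filter. The overlap was not counted without them. The 7 members that overlapped in Bcl2 were the same 7 that were not called there, Ccne1, Ccne2, Cdc6, Cks2, E2f1, Gins2 and Mcm7, named for this after their values were seen.

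**Figure D2:**
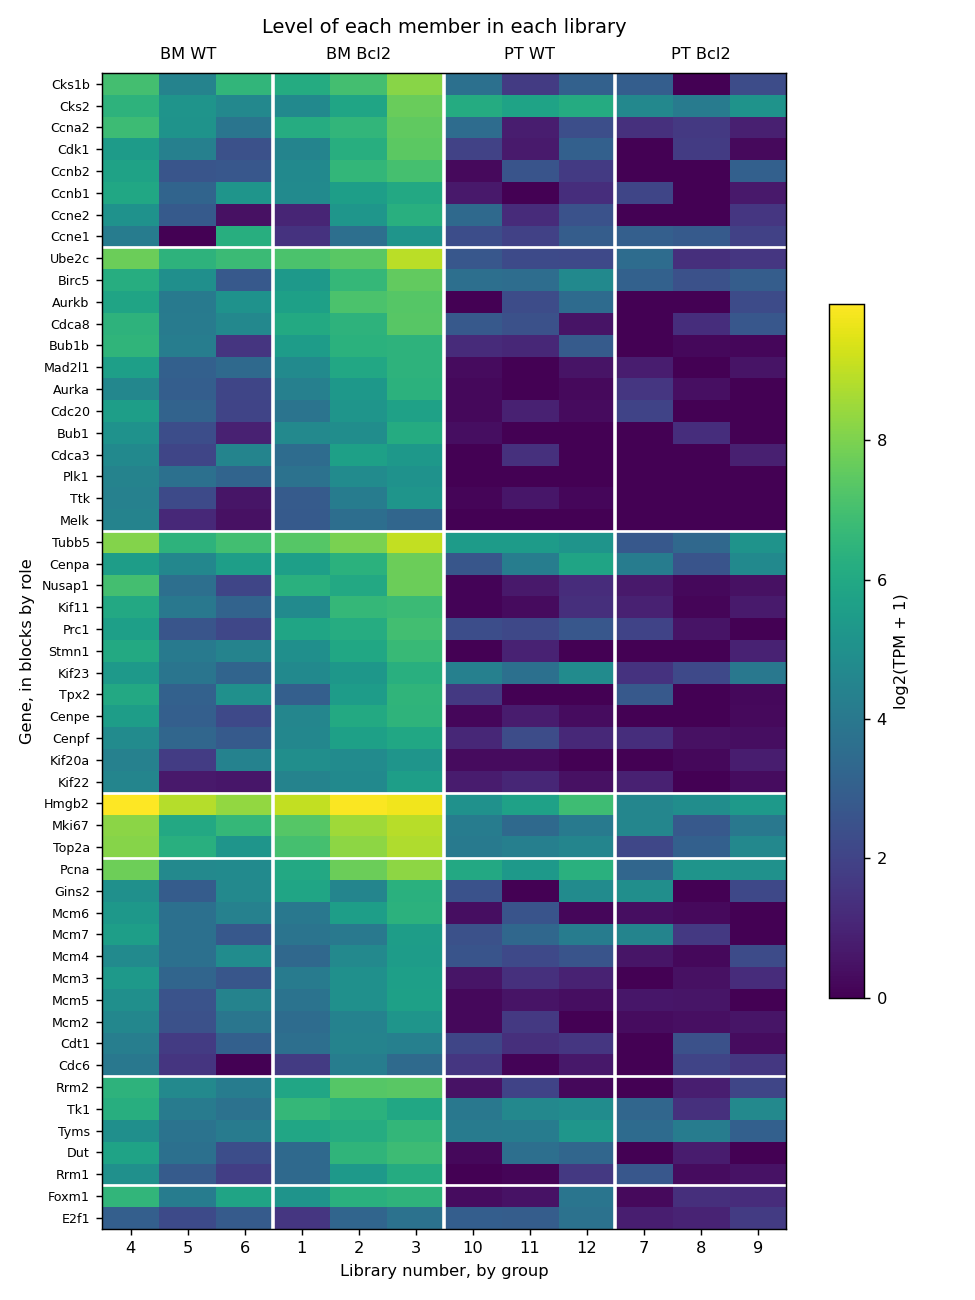
Colour gives log2(TPM + 1) of each of the 53 genes (rows, in blocks by role and by mean level within a block) in the 12 libraries (columns, 3 per group). The BM columns are bright and the PT columns dark in most rows, with Cks2, Tyms, Pcna and Kif23 among the rows that stay bright in PT WT.

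The 3 chromatin genes of dividing cells were among the 4 members of highest mean level. Hmgb2, a DNA-bending protein abundant in proliferating cells (GRCm38 chr8:57511907-57515999), had levels in BM WT 991, 465 and 325, in BM Bcl2 524, 943 and 849, in PT WT 31.9, 50.6 and 114 and in PT Bcl2 22.5, 28.7 and 39.3 TPM. The lowest marrow value, 325 TPM, was above the highest peritoneal one, 114 TPM. Hmgb2 fell by 3.20 ± 0.57 (log2, SE) in WT PT against BM (adjusted p = 0.00872) and fell by 4.62 ± 0.57 in Bcl2 (adjusted p = 0.000439). Mki67, the proliferation antigen that coats mitotic chromosomes (chr7:135689784-135716361), had levels in BM WT 295, 62.7 and 98.1, in BM Bcl2 159, 371 and 466, in PT WT 17.1, 9.56 and 16.03 and in PT Bcl2 22.6, 5.79 and 14.8 TPM. All 6 marrow libraries exceeded all 6 peritoneal libraries, which nevertheless kept 5.79 to 22.6 TPM. Mki67 fell by 3.05 ± 0.69 in WT (adjusted p = 0.0294) and fell by 4.48 ± 0.69 in Bcl2 (adjusted p = 0.00135). Top2a, the topoisomerase that untangles sister chromatids (chr11:98992943-99024189), had levels in BM WT 286, 77.04 and 35.8, in BM Bcl2 129, 304 and 439, in PT WT 15.9, 18.8 and 22.1 and in PT Bcl2 3.295, 7.34 and 23.97 TPM. Its change was -2.25 ± 0.80 in WT, which missed the threshold (adjusted p = 0.158) although the groups did not overlap, and it fell by 4.75 ± 0.80 in Bcl2 (adjusted p = 0.0021).

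**Figure D3:**
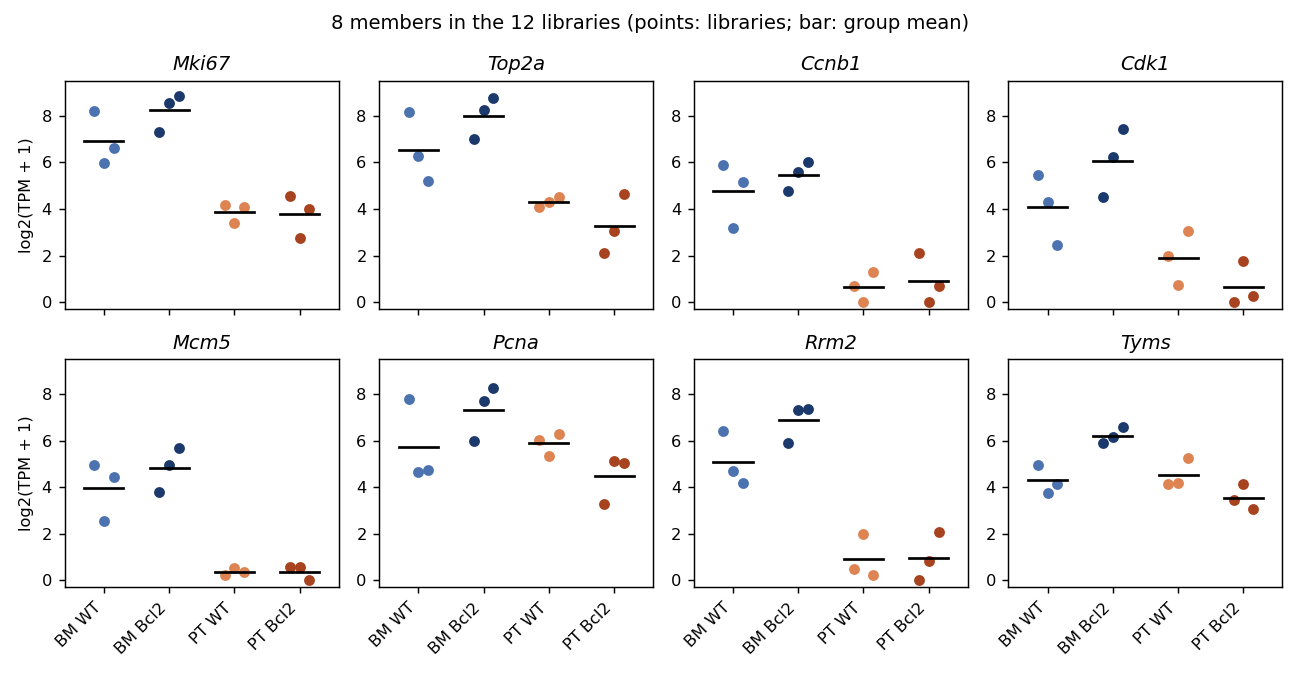
Points show log2(TPM + 1) of 8 genes in each library of the 4 groups, and black bars the group means (n = 3). Mcm5, Ccnb1 and Rrm2 lie near 0 to 2 in both PT groups, while Pcna and Tyms in PT WT lie among the BM WT libraries.

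Cyclins, Cdk1 and the Cks proteins drive entry into S phase and mitosis, and 1 of these 8 was called lower in WT and 5 in Bcl2. The shares of all tested genes called lower were 1.22% and 19.1%. Ccnb1, the mitotic cyclin B1 (chr13:100778650-100786570), had levels in BM WT 59.2, 8.19 and 35.3, in BM Bcl2 25.97, 47.1 and 63.2, in PT WT 0.601, 0 and 1.47 and in PT Bcl2 3.25, 0 and 0.611 TPM. The highest peritoneal value, 3.25 TPM, was below the lowest marrow value, 8.19 TPM. Ccnb1 fell by 4.10 ± 0.84 in WT (adjusted p = 0.0179) and fell by 4.52 ± 0.84 in Bcl2 (adjusted p = 0.0035). Cdk1, the kinase that cyclin B1 activates (chr10:69335146-69352938), had levels in BM WT 42.7, 18.97 and 4.499, in BM Bcl2 21.8, 75.4 and 173, in PT WT 2.91, 0.658 and 7.26 and in PT Bcl2 0, 2.36 and 0.185 TPM. BM WT library 6 lay below PT WT library 12, so the WT groups overlapped, and the change of -2.16 ± 0.97 was not called (adjusted p = 0.281). In Bcl2 the groups were apart and Cdk1 fell by 5.40 ± 0.97 (adjusted p = 0.00284). Ccna2, Ccnb2 and Cks1b, a cyclin of S phase, a mitotic cyclin and a Cdk subunit, were the others called in Bcl2. The E-type cyclins Ccne1 and Ccne2, which act at entry into S phase, spread within groups from 0 to 74.9 and from 0.367 to 33.0 TPM in BM WT and were called in neither genotype.

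Of the mitotic kinases, the spindle checkpoint and the anaphase-promoting complex, 3 of 13 were called in WT and 13 of 13 in Bcl2. Over all tested genes, 1.22% and 19.1% were called lower. Ube2c, the ubiquitin-conjugating enzyme of the anaphase-promoting complex (chr2:164769898-164778822), had levels in BM WT 211, 85.1 and 109, in BM Bcl2 139.8, 168 and 479, in PT WT 5.55, 3.74 and 3.63 and in PT Bcl2 10.4, 1.52 and 2.01 TPM. Ube2c fell by 4.59 ± 0.70 in WT (adjusted p = 0.00376) and fell by 5.67 ± 0.70 in Bcl2 (adjusted p = 0.000439). Mad2l1, which holds back anaphase until chromosomes are attached (chr6:66535390-66547220), had levels in BM WT 48.1, 7.24 and 9.51, in BM Bcl2 26.4, 60.8 and 85.8, in PT WT 0.228, 0 and 0.437 and in PT Bcl2 0.715, 0 and 0.444 TPM. No PT library reached 1 TPM, and Mad2l1 fell by 3.75 ± 0.80 in WT (adjusted p = 0.0227) and fell by 5.29 ± 0.80 in Bcl2 (adjusted p = 0.00123). Plk1, the Polo kinase of mitotic entry and exit (chr7:122159439-122169873), had levels of 20.7, 11.9 and 8.15 TPM in BM WT and 12.6, 27.2 and 32.6 TPM in BM Bcl2. It was listed at 0 in all 6 PT libraries and was called in both genotypes (adjusted p = 0.00872 in WT and 0.00118 in Bcl2), with no fold given against 0. Melk, a kinase of the same role, was likewise at 0 in all 6 PT libraries, against 0.361 to 20.6 TPM in BM WT and 6.04 to 11.0 TPM in BM Bcl2. The 10 members of this role not listed library by library, among them the Aurora kinases Aurka and Aurkb, the survivin gene Birc5 and the Cdc20 gene of the anaphase-promoting complex, ranged from 0.361 to 91.5 TPM in BM WT, 6.04 to 188 in BM Bcl2, 0 to 25.4 in PT WT and 0 to 7.48 in PT Bcl2.

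Kinesins, centromere and spindle genes build and move the mitotic spindle. In WT 3 of 12 were called and in Bcl2 12 of 12, against 1.22% and 19.1% of all tested genes. Kif11, the kinesin that pushes the spindle poles apart (chr19:37376403-37421859), had levels in BM WT 62.7, 14.9 and 8.03, in BM Bcl2 26.1, 98.3 and 110.0, in PT WT 0.0581, 0.224 and 1.53 and in PT Bcl2 0.886, 0.112 and 0.636 TPM. Kif11 fell by 3.82 ± 0.85 in WT (adjusted p = 0.0277) and fell by 5.47 ± 0.85 in Bcl2 (adjusted p = 0.00142). Stmn1, the tubulin-binding protein stathmin (chr4:134468320-134473843), had levels in BM WT 64.3, 15.8 and 20.96, in BM Bcl2 29.7, 59.7 and 102, in PT WT 0, 0.912 and 0 and in PT Bcl2 0, 0 and 0.937 TPM. It stayed under 1 TPM in all 6 PT libraries and fell by 4.54 ± 0.76 in WT (adjusted p = 0.00599) and fell by 5.53 ± 0.76 in Bcl2 (adjusted p = 0.000843). Kif20a, a kinesin of the central spindle, had levels in BM WT 19.8, 2.42 and 20.2, in BM Bcl2 28.9, 27.1 and 35.4, in PT WT 0.218, 0.227 and 0 and in PT Bcl2 0, 0.154 and 0.731 TPM. BM WT library 5 was the marrow library closest to the peritoneum for Kif20a, which fell by 3.32 ± 0.78 in WT (adjusted p = 0.0346) and fell by 4.63 ± 0.78 in Bcl2 (adjusted p = 0.00213). Among the other 9 members, whose changes ran from -4.14 to 0.12 in WT and from -6.25 to -2.73 in Bcl2, were the tubulin gene Tubb5, the centromere genes Cenpa, Cenpe and Cenpf and the spindle genes Nusap1, Prc1 and Tpx2.

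Of the genes of origin licensing and of the replication fork, 2 of 10 were called in WT and 7 of 10 in Bcl2. Over all tested genes, 1.22% and 19.1% were called lower. Mcm5, a subunit of the replicative helicase (chr8:75109569-75128439), had levels in BM WT 29.96, 4.86 and 21.01, in BM Bcl2 12.8, 30.6 and 50.05, in PT WT 0.16001, 0.428 and 0.305 and in PT Bcl2 0.502, 0.482 and 0 TPM. All PT libraries were at or below 0.502 TPM and all BM libraries at or above 4.86 TPM. Mcm5 fell by 3.62 ± 0.79 in WT (adjusted p = 0.0247) and fell by 4.43 ± 0.79 in Bcl2 (adjusted p = 0.00269). Mcm6, another subunit (chr1:128331590-128359664), had levels in BM WT 38.3, 11.6 and 19.5, in BM Bcl2 14.8, 46.99 and 83.4, in PT WT 0.287, 5.05 and 0.122 and in PT Bcl2 0.2998, 0.192 and 0 TPM, with PT WT library 11 at 5.05 TPM and the other 5 PT libraries at or below 0.2998 TPM. Mcm6 fell by 3.40 ± 0.86 in WT (adjusted p = 0.0473), a call that held in 3 of the 12 fits that left out a library, and fell by 5.11 ± 0.86 in Bcl2 (adjusted p = 0.00208). Pcna, the sliding clamp of the polymerases, which also serves DNA repair (chr2:132249162-132253314), had levels in BM WT 218, 24.6 and 26.01, in BM Bcl2 63.1, 211 and 306, in PT WT 64.02, 39.9 and 78.2 and in PT Bcl2 8.83, 34.4 and 32.1 TPM. BM WT library 4 stood far above libraries 5 and 6, which lay below all 3 PT WT libraries, and the WT change was 0.16 ± 0.85 (adjusted p = 0.953). In Bcl2 the groups did not overlap and Pcna fell by 2.83 ± 0.85 (adjusted p = 0.0296), a call that was lost without library 2, 3 or 7, after centring and after quantile normalization. The licensing factor Cdc6 was at 0 to 17.8 TPM in the 12 libraries and was called in neither genotype. Cdt1, another licensing factor, was at 11.3, 20.8 and 19.2 TPM in BM Bcl2 and 0, 4.48 and 0.252 TPM in PT Bcl2. It was not called in WT and fell by 3.21 ± 0.85 in Bcl2 (adjusted p = 0.0172). Gins2, of the helicase complex, varied from 0 to 27.2 TPM in PT WT and from 0 to 29.6 in PT Bcl2.

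Nucleotide synthesis genes make the precursors of DNA. In WT 1 of 5 was called and in Bcl2 5 of 5, against 1.22% and 19.1% of all tested genes. Rrm2, the regulated subunit of ribonucleotide reductase (chr12:24708241-24714146), had levels in BM WT 84.8, 24.7 and 17.04, in BM Bcl2 58.5, 161 and 167, in PT WT 0.392, 3.02 and 0.168 and in PT Bcl2 0, 0.789 and 3.27 TPM. The highest PT level, 3.27 TPM, was below the lowest BM level, 17.0 TPM. Rrm2 fell by 4.19 ± 0.83 in WT (adjusted p = 0.0152) and fell by 5.90 ± 0.83 in Bcl2 (adjusted p = 0.000944). Tyms, the thymidylate synthase (chr5:30058202-30073617), had levels in BM WT 30.3, 12.7 and 16.8, in BM Bcl2 58.2, 71.5 and 96.6, in PT WT 16.7, 17.2 and 36.9 and in PT Bcl2 10.1, 16.9 and 7.28 TPM. In WT the marrow and peritoneal libraries were mixed, with a change of 0.23 ± 0.60 (adjusted p = 0.891), while in Bcl2 they were apart and Tyms fell by 2.66 ± 0.60 (adjusted p = 0.00796), a call that was lost after centring. Tk1, Dut and Rrm1, for thymidine kinase, dUTPase and the large reductase subunit, were called in Bcl2 alone.

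The list holds 2 transcription factors, of which 1 was called, in both genotypes, against 1.22% of all tested genes in WT and 19.1% in Bcl2. Foxm1, the activator of mitotic genes (chr6:128362967-128376146), had levels in BM WT 93.9, 16.997 and 54.6, in BM Bcl2 34.7, 79.2 and 86.9, in PT WT 0.244, 0.402 and 13.5 and in PT Bcl2 0.191, 1.52 and 1.38 TPM. PT WT library 12 was the only peritoneal library above 2 TPM. Foxm1 fell by 3.96 ± 0.94 in WT (adjusted p = 0.0361) and fell by 5.03 ± 0.94 in Bcl2 (adjusted p = 0.00353). E2f1, the activator of S phase genes (chr2:154559407-154569892), had low levels in BM WT 7.14, 3.71 and 6.17, in BM Bcl2 1.96, 8.58 and 12.4, in PT WT 6.89, 6.56 and 12.4 and in PT Bcl2 0.769, 1.002 and 2.31 TPM. It was called in neither genotype, with 0.51 ± 0.74 in WT (adjusted p = 0.783) and -1.67 ± 0.74 in Bcl2 (adjusted p = 0.116).

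5 members had a WT change above 0, Cks2, E2f1, Tyms, Pcna and Kif23, of which Cks2 and Kif23 are named after their values were seen. Cks2, a Cdk-binding subunit, had 86.5, 34.1 and 24.3 TPM in BM WT and 68.7, 53.7 and 68.02 TPM in PT WT, a change of 0.59 ± 0.71 (adjusted p = 0.736), and 25.7, 57.1 and 202 TPM in BM Bcl2 and 24.1, 16.6 and 33.4 TPM in PT Bcl2. Its transcripts share 31.7% of their 31-mers with other genes, so its reads may be split between copies. Kif23, a kinesin of cytokinesis, had 40.5, 13.5 and 8.31 TPM in BM WT and 19.4, 11.9 and 26.6 TPM in PT WT, a change of 0.12 ± 0.79 (adjusted p = 0.959). For none of the 5 was the WT change called. In all, 10 members share more than 10% of their 31-mers with other genes, Ccnb1 at 27.7% and Pcna at 23.3% among them, and 0 share more than 50%.

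**Figure D4:**
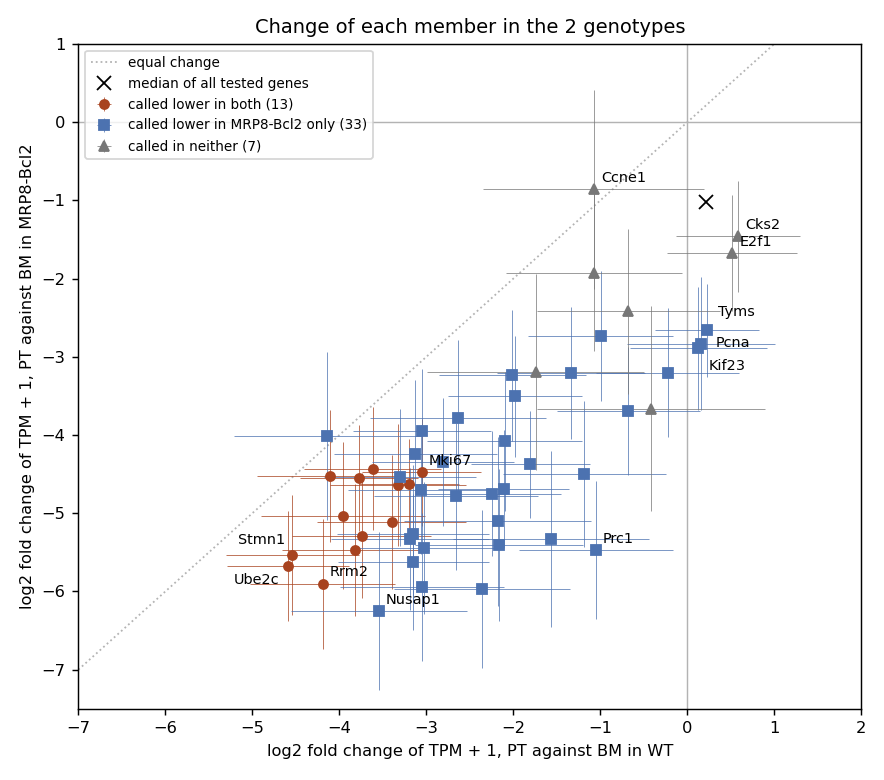
Each point is 1 gene, with its log2 fold change of TPM + 1 (PT against BM) in WT on the x axis and in Bcl2 on the y axis, and bars of 1 SE. Of 53 points, 53 lie below 0 on the y axis and 48 below 0 on the x axis, and the cross marks the median of all tested genes at 0.22 and -1.02.

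The 2 genotypes were then set against each other, which asks whether resistance to apoptosis goes with another level of these genes. In the difference of the PT against BM change between genotypes, 0 members were called (limma), where 0.0149% of all tested genes were. At an unadjusted p under 0.05 there were 14 members, all with the larger fall in Bcl2, where 16.9% of all genes passed. That count was 1 after centring (9.18% of all genes), 2 after quantile normalization (6.27%) and 28 without library 4 (21.98%). It was 4 without library 6 (11.25%), 5 without library 3 (11.46%) and 6 without library 5 (13.43%). Without library 2 it was 8 (12.95%), and without library 12 also 8 (11.83%). The median difference was -1.74 for the members and -1.18 for all genes. When each library was centred on its median, it was 0.06 for the members and 0.62 for all genes. Relative to all genes, the members were at -0.56 both before and after centring. That 33 members were called in Bcl2 alone therefore does not show that their changes differ between genotypes. The 2 changes set against each other share no library.

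In the marrow, 0 members were called between Bcl2 and WT, where 0.0223% of all genes were. Of the 53 members, 52 had a higher mean log2 level in BM Bcl2, with a median difference of 1.38 beside 0.49 over all genes. At an unadjusted p under 0.05, 12 members were higher and 0 lower, where 6.61% of all genes were higher. For 4 of 53 all BM Bcl2 libraries lay above all BM WT libraries, near the 10% of all genes. The 12 members became 2 after centring (1.57% of all genes) and 3 after quantile normalization (2.46%). They were 3 without library 3 (3.43%), 3 without library 5 (4.56%) and 4 without library 6 (2.68%). They were 6 without library 2 (4.6002%) and 21 without library 1 (9.32%). Without library 4 they were 29 (12.6%), and there 1, Kif22, a kinesin that binds DNA, was called. The median difference was 0.64 after centring, beside -0.25 over all genes. In the peritoneum, 0 members were called, where 0.0297% of all genes were, and 3 were at an unadjusted p under 0.05, against 12.7% of all genes. Without library 9, 5 were (14.8% of all genes). All PT Bcl2 libraries lay below all PT WT libraries for 8 members, against 18.8% of all genes, and for 17 without library 9, against 29.5%. The median difference in the peritoneum was -0.42, beside -0.67 over all genes, and 0.65 after centring, beside 0.40 over all genes.

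Marrow libraries of one group differed several-fold. Library 4 of BM WT had 3.45 times the summed level of library 5, and library 3 of BM Bcl2 had 2.94 times that of library 1. Library 3 held the highest value of all 12 libraries for 43 of the 53 genes. For 48 of 53, libraries 2, 3 and 4 each lay above both libraries 5 and 6. Genes of late neutrophils went the other way: Retnlg, a secreted protein of mature neutrophils, was at 928, 20198 and 18941 TPM in libraries 4, 5 and 6 and 9407, 343 and 953 TPM in libraries 1, 2 and 3. Cxcr2, the chemokine receptor with which neutrophils leave the marrow, was at 253, 1864 and 1730 and 1493, 399 and 212 TPM in the same order. Both were lowest in the marrow libraries 2, 3 and 4, where the 53 genes were highest. The sum of the 12 granule genes of immature neutrophils, in which genes of high level weigh most, did not follow that order. It was 48520, 25695 and 29729 TPM in libraries 4, 5 and 6 and 43176, 55141 and 19886 TPM in libraries 1, 2 and 3. It was lowest in library 3, where the summed 53 genes were highest. Gene by gene, the median difference of the 12 between BM Bcl2 and BM WT was 1.34, beside 1.38 for the 53 members and 0.49 over all genes. At an unadjusted p under 0.05 (limma) there were 4 of the 12, against 7.36% of all genes, and 0 were called. The order of the libraries within a group carries no label, and the part of the marrow stages sorted in this spread was not tested.

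**Figure D5:**
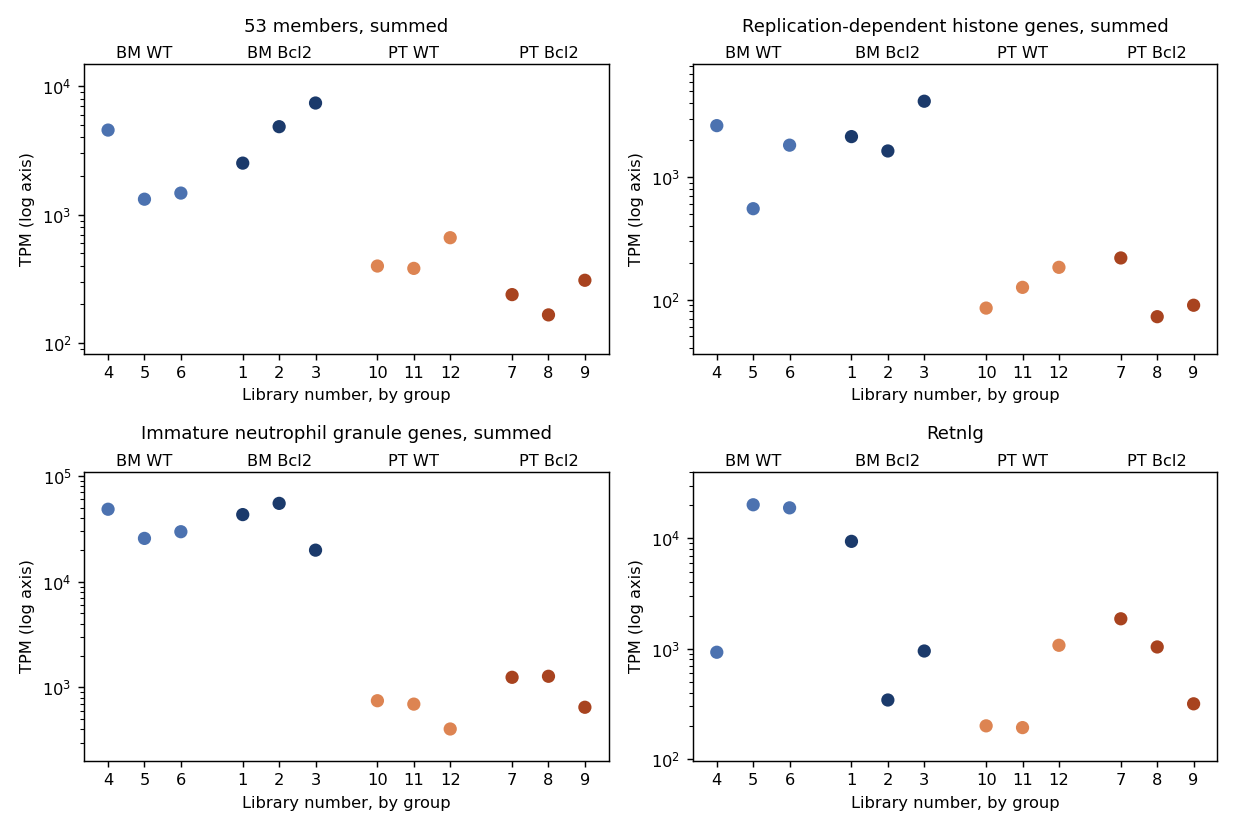
Points show, on log axes in TPM, the summed 53 genes, the summed replication-dependent histone genes, the summed granule genes of immature neutrophils and Retnlg in the 12 libraries. The first 3 lie higher in all BM than in all PT libraries, while Retnlg is at 928, 343 and 953 TPM in BM libraries 4, 2 and 3 and at 9407 to 20198 TPM in libraries 1, 6 and 5.

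Marker genes of cells other than neutrophils were read beside these values. The 13 monocyte and macrophage markers summed to 137 to 814 TPM in BM and 27.5 to 187 TPM in PT, and library 3, with the highest level of the 53 genes, also had the highest sum, with F13a1 at 498 TPM. Of the 11 tested, 0 were called in WT. In Bcl2, 3 of them, Ccr2, F13a1 and Irf8, were called lower in PT, where 19.1% of all genes were. The 12 erythroid markers summed to 85.3 to 1396 TPM in BM, highest in library 1, and to 4.19 to 17.4 TPM in PT. Of the 8 tested, 3 were called lower in PT in WT and 4 in Bcl2, where 1.22% and 19.1% of all genes were. The 8 stem and progenitor markers summed to 23.4 to 87.2 TPM in BM and 5.44 to 57.1 TPM in PT. Of the 5 tested, 0 were called in WT and 1, Myb, was called lower in PT in Bcl2, where 19.1% of all genes were. Cd34, of the same list, was at or below 1.36 TPM in all 12 libraries. The 12 B cell and B progenitor markers summed to 29.7 to 146.6 TPM in BM and 49.9 to 352 TPM in PT. Of the 9 tested, 0 were called in either genotype. The 8 T and NK cell markers summed to 60.9 to 154 TPM in BM and 22.6 to 215 TPM in PT, and the 9 eosinophil, basophil and mast cell markers to 9.72 to 37.5 TPM in BM and 13.6 to 597 TPM in PT, highest in PT WT library 12. Of 4 tested T and NK cell markers, 1, Nkg7, was called lower in PT in both genotypes. Of 7 tested markers of the last list, 0 were called in Bcl2. In WT, Mcpt8 was called lower and Cma1 higher, where 1.22% and 1.59% of all genes were. The part of other cells in the level of the 53 genes was not tested.

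Further genes of the same pathways were read from other written lists. Of 45 tested further S phase genes, 3 were called lower in WT and 28 in Bcl2, where 1.22% and 19.1% of all tested genes were. Among the 3 of highest level, Lig1, the ligase that joins Okazaki fragments, fell by 3.94 ± 0.98 in WT (adjusted p = 0.0429) and fell by 5.15 ± 0.98 in Bcl2 (adjusted p = 0.00375), Nasp, a histone chaperone, fell by 3.54 ± 0.90 in Bcl2 (adjusted p = 0.0143) with a change of -0.54 ± 0.90 in WT that was not called, and Slbp, the histone mRNA binding protein, was called in neither. Of 48 tested further genes of G2 and mitosis, 5 were called lower in WT and 43 in Bcl2. There Tacc3, a spindle protein, fell by 4.31 ± 0.85 in WT (adjusted p = 0.0141) and fell by 4.67 ± 0.85 in Bcl2, while Smc4, of condensin, and Kpna2, an importin, were called in Bcl2 alone. 0 genes of these lists were called higher. The counts of these and the following lists were not repeated after centring.

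Of 21 tested E2F, pocket protein and B-Myb genes, 3 were called lower in WT and 12 in Bcl2, against 1.22% and 19.1% of all tested genes. Tfdp1, the partner of E2F factors, was at 137, 83.5 and 105 TPM in marrow and 1.76, 6.95 and 12.7 TPM in peritoneum of WT mice, where it fell by 4.0 ± 0.66 (adjusted p = 0.00595), and E2f8, a repressor of the family, fell by 3.79 ± 0.80 (adjusted p = 0.0203). Both were also called lower in Bcl2. Rb1, the retinoblastoma protein that restrains E2F, was not called in WT (change 0.21 ± 0.73) and fell by 2.39 ± 0.73 in Bcl2 (adjusted p = 0.0313).

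Histone genes of the replication-dependent clusters have messages that are made in S phase. Of 45 tested, 8 were called lower in WT and 27 in Bcl2, against 1.22% and 19.1% of all tested genes. Their sum was 2630, 552 and 1822 TPM in BM WT and 85.2, 126 and 183 TPM in PT WT, and 2140, 1634 and 4161 TPM in BM Bcl2 and 219, 72.5 and 89.9 TPM in PT Bcl2. Near-identical copies make single histone genes uncertain, and Hist1h4d, Hist1h1e and Hist1h2ab, the 3 of highest level, were called lower in both genotypes. Of the 12 granule genes of immature neutrophils, 10 were called lower in WT and 12 in Bcl2, against the same shares of all genes. Ngp, a protein of the specific granules, fell by 7.13 ± 0.62 in WT (adjusted p = 4.7e-05) and fell by 6.84 ± 0.62 in Bcl2 (adjusted p = 5.5e-05), and Camp and Lcn2, antimicrobial proteins of the same granules, were called lower in both genotypes. The median change of the 12 was -5.73 in WT and -5.96 in Bcl2, beside -2.64 and -4.52 for the 53 members.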

How the data were processed

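RNA of sorted neutrophils was read in 12 libraries. As deposited, the values are log2(TPM + 1) per gene and library, which the authors made with AltAnalyze at default settings from amplified cDNA; its version, the aligner and the annotation are not given in the sources used here. Each library's group came from the header of the deposited marker table. The 4 deposited tables of the authors' own averages, counts, correlations and lineage scores, the fold changes and p-values in the main table, and 2 columns of a table of 1 unnamed library were not used.

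One linear model of the 4 groups was fitted per gene with limma 3.58.1 under R 4.3.3 (empirical Bayes moderation with a mean trend, 8 residual degrees of freedom), leaving out genes that did not reach 1 TPM in 3 or more libraries. Calls needed a p under 0.05 after Benjamini-Hochberg adjustment and a 2-fold change, the interaction the p alone. Sums and ratios use TPM. Tables and plots were made with Python 3.11.15, pandas 2.3.3 and matplotlib 3.10.9.

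The members and all lists were chosen with earlier results of these data known. Levels are given library by library for Mki67, Top2a, Ccnb1, Cdk1, Mcm5, Pcna, Rrm2 and Tyms, for members called between genotypes, and per role for at most 3 members called in both genotypes or, to fill up to 2, those of highest mean TPM. Of other lists the 3 genes of highest mean TPM are named. Depth was estimated over 5021 genes with 1 transcript, where 69.4 to 79.4% of low values lay within 0.15 of a whole read (30% by chance). Alternatives were another pseudocount, other filters and scalings, fits of 2 groups, no trend and each library left out; overlaps without a library or after centring and role ratios without a library were added after seeing the data.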

Additional observations from a re-analysis of the deposited data

How the results depend on the processing

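No paired analysis was possible because the columns of the table carry no mouse or replicate number. Members called lower in PT in WT, 13 as reported, were 21 after centring each library on its median (1.46% of all genes) and 24 after quantile normalization (1.96%). They were 4 when only the 2 groups were fitted (0.580%), and 3 to 17 with a library left out (0.372% to 1.61%). The cause was not tested. The count in Bcl2 was 36 after centring, 37 after quantile normalization and 39 to 49 with a library left out, while the share of all genes called lower there, 19.1% as reported, was 3.47%, 5.79% and 7.74% to 20.5% in the same order. Between genotypes in BM it was 0 to 1 with a library left out, the 1 without library 4. Counts of members called in the interaction and in PT were 0 under every alternative run. The median change in the interaction, -1.74, was 0.0650 after centring, beside 0.622 over all genes. That between genotypes in PT, -0.42, was 0.65 after centring and 0.25 after quantile normalization, beside 0.40 and 0.0012 over all genes. For Pcna in WT, 0.16 became -0.0575 after centring, -0.0790 after quantile normalization and -0.0295 without the 100 genes of highest TPM, and -0.371 to 1.18 with a library left out. Tyms in WT ranged from -0.132 to 0.564 with a library left out, and E2f1 in Bcl2, -1.67, was 0.0128 after quantile normalization. Members whose BM and PT libraries did not overlap ranged from 33 to 38 in WT (9.39% to 15.6% of all genes) and 46 to 51 in Bcl2 (36.4% to 43.0%) with a library left out, and were 36 and 39 after centring (11.7% and 10.9%), both chosen after seeing the data. For the 3 comparisons with no member called, single members under the alternatives are not listed here, apart from the call of Kif22 without library 4. The low level of many members in PT leaves few reads on them, which limits what can be seen there, and 3 libraries a group limit every test.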
